A study of Homo sapiens with 4 samples.

Results

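The 9 genes described here, MDM2, MDM4, GDF15, TP53INP1, SESN1, ZMAT3, BTG2, GADD45A and PHLDA3, belong to the pathway through which the tumour suppressor p53 answers DNA damage. They were chosen by symbol, and all 9 were found among the 19381 genes of the deposited count and TPM tables. RNA was sequenced from SK-LMS-1 cells, a human line that the labels describe as uterine leiomyosarcoma, a malignant tumour of smooth muscle. In 2 libraries the cells were untreated, with no vehicle stated, and in 2 they had received 50 µM 2-D08 for 48 h. The compound, a flavone, blocks the transfer of the protein modifier SUMO onto its targets. All 4 libraries come from this single line, and no source used here states whether the 2 libraries of a group had cultures of their own. The p-values therefore speak only of the spread among these 4 libraries, and that spread may be technical.

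p53 is a transcription factor held low by MDM2, a ubiquitin ligase, and by its relative MDM4. DNA damage releases p53 from both, and it then switches on genes that arrest the cell cycle, repair DNA, lower growth signalling or promote death, together with MDM2 itself, which closes a feedback loop. p53, MDM2 and MDM4 are all known to be modified by SUMO. SK-LMS-1 is known to carry a mutated p53 gene, and several of the 9 genes also respond to stress pathways that do not need p53.

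Where the p53 sequence motif lies is shown first, because the genes are grouped here by their link to p53. p53 binds a pair of copies of a degenerate 10-letter consensus, known by name as the p53 response element. RefSeq (GRCh38.p14) start sites with promoter sequence were matched for 6 of the 9 members, in 12 windows; GADD45A and PHLDA3 were not matched, and TP53INP1 was not used. The 250 bases before each start were searched; the consensus reads the same on both strands. A pair of adjoining copies with at most 1 mismatch in each and the core C and G kept was found in 49 of 34943 windows of this length (0.14%). An exact single copy was found in 1950 of them (5.58%). Among the members' windows, only those before the inner start sites of MDM2 held the pair, and only 1 window of SESN1 held an exact single copy. Pairs with letters between the copies, copies with more mismatches and stretches outside these 250 bases were not searched. A window without a match therefore does not show that a gene lacks a p53 site. The stretches below carry these matches in capitals, beside the upstream promoter of MDM2, which held neither. All are printed 5′ to 3′ on the strand of the gene.

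MDM2 upstream promoter, chr12:68807922-68808171, plus strand, before the first exon: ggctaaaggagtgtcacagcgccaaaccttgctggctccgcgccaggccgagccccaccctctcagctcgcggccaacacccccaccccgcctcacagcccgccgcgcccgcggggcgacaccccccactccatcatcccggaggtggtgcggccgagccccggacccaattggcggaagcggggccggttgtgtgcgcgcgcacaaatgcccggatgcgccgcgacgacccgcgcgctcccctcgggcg
MDM2 inner promoter, chr12:68808767-68809001, plus strand, intronic: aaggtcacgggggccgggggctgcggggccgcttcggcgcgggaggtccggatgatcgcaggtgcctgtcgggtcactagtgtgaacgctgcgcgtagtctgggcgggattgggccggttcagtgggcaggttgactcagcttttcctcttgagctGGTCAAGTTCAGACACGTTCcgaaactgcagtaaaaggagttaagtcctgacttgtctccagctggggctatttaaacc
SESN1 internal promoter, chr6:109008989-109009238, minus strand, intronic: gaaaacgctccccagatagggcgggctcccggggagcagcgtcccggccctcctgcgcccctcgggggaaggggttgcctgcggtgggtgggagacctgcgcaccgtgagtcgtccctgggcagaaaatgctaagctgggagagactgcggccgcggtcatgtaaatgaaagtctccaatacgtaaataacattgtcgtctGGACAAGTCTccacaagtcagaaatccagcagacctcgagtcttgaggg

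The pair in MDM2 begins 94 bases before the inner start at position 68809017, and the single copy in SESN1 begins 49 bases before its start at 109008988. A match is a description of letters and not a measured site. The tables hold 1 value per gene, so transcripts from the different starts of MDM2 and SESN1 cannot be separated in what follows.

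The libraries held 29586475 and 16628710 counts (untreated replicates 1 and 2) and 14796702 and 31300635 counts (treated replicates 1 and 2). Of counts above 0, 89% were even in untreated replicate 1 and 88.8% in treated replicate 2, against 48.4% and 47.9% in the other libraries. For the members, 9 of 9 and 8 of 9 counts were even there, so the totals of these libraries may overstate their depth; an alternative divided their counts by 2. Markers of smooth muscle, the labelled lineage, summed to 836 and 854 CPM in untreated and 689 and 706 CPM in treated libraries over 10 genes, scaled to total counts without further factors. CALD1 made up most of each sum (643 and 675 against 452 and 515 CPM). CALD1, TAGLN, MYL9 and CNN1 fell and SMTN rose, and the defining marker DES was at 0 counts in all 4 libraries. Markers of immune cells summed to 62.8 and 66.5 against 101 and 98.4 CPM over 8 genes, of which CD68 and LCP1 rose and MS4A1 was at 0. Epithelial markers summed to 344 and 302 against 282 and 227 CPM over 9 genes, of which KRT7, KRT19 and KRT8 fell and KRT5 was at 0. KRT18 made up most of each sum (218 and 193 against 214 and 180 CPM) and did not pass (-0.07 on the log2 scale). EPCAM (-0.23) and CLDN4 (-0.05) did not pass either. CDH1, at 0 and 0 against 5 and 12 counts, and KRT14 were not tested. Endothelial markers summed to 1.35 to 2.36 CPM over 6 genes. PECAM1 rose (1.89 on the log2 scale, from 14 and 2 to 18 and 40 counts). CDH5 went the other way without passing (-1.10, from 22 and 24 to 5 and 18 counts), and VWF, KDR, TEK and EMCN were not tested. The part of other cells in the results below was not tested, and in bulk RNA fewer cells of a type and less RNA per cell cannot be told apart.

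Treated cells were compared with untreated cells to see which transcripts of the p53 pathway changed with the compound. GADD45A rose and TP53INP1 fell, each a little over 2-fold, and BTG2 rose at a level of few reads. The other 6 members did not pass the test. The unit of the members' and listed genes' levels is CPM, in which each library's counts are brought to a common total with TMM factors (the marker sums above lack these factors), and a gene was called changed at an edgeR adjusted p under 0.05 over all 12906 genes tested. Of the 9 members 2 were higher and 1 lower, which is 33.3%; over all genes tested 33.9% were called, 17.1% higher and 16.9% lower, so the share of members called was near the background. The members' median log2 fold change was -0.05, against 0.00 over all genes tested. All 9 members passed the low-count filter, but BTG2 did so only through its treated libraries and therefore had to differ. CPM values of the 2 groups did not overlap for 7 of 9 members, a pattern seen in 67.5% of genes tested.

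**Figure D1:**
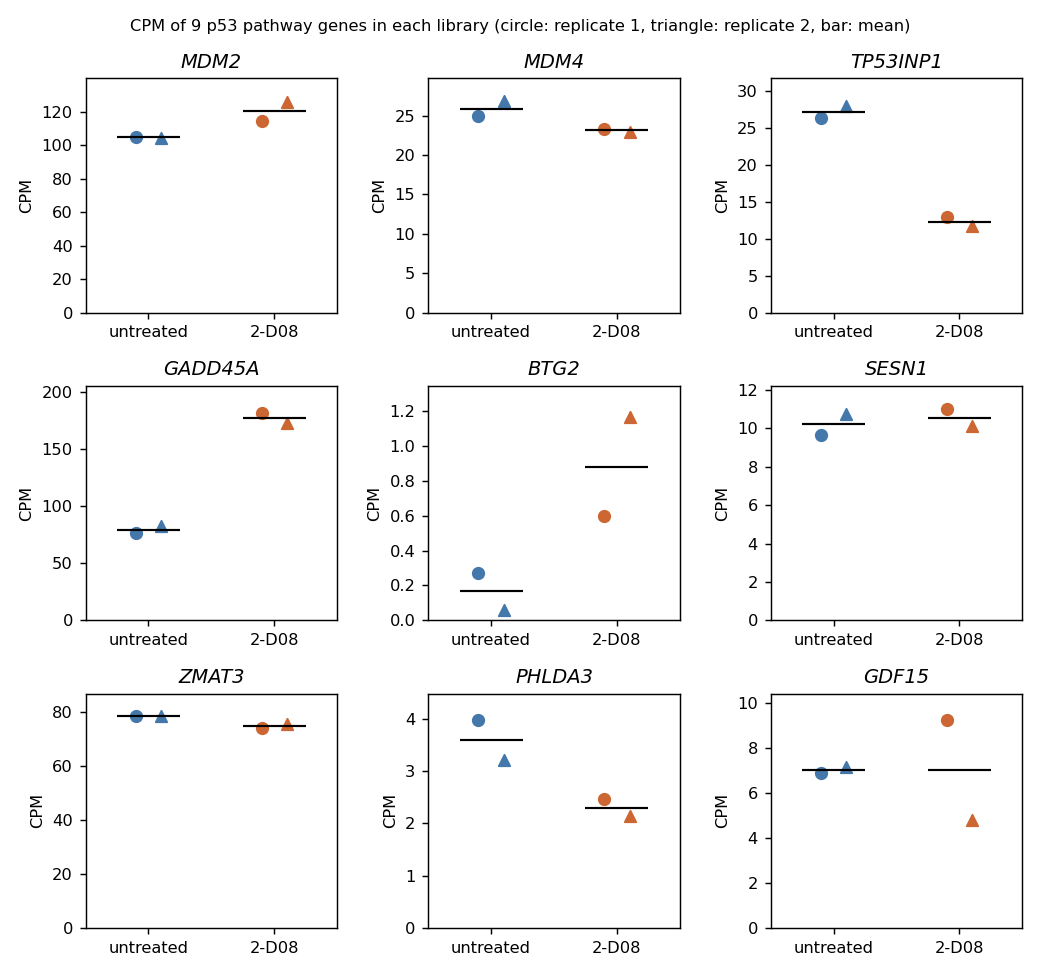
CPM (vertical axis, from 0) of each of the 9 genes in untreated and 2-D08-treated libraries; circles are replicate 1, triangles replicate 2 and bars the mean of 2 libraries. GADD45A and TP53INP1 show separated pairs (76.1 and 82.3 against 181 and 173 CPM; 26.4 and 28.0 against 12.9 and 11.7 CPM), and the treated pair of GDF15 lies on both sides of its untreated pair.

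**Figure D2:**
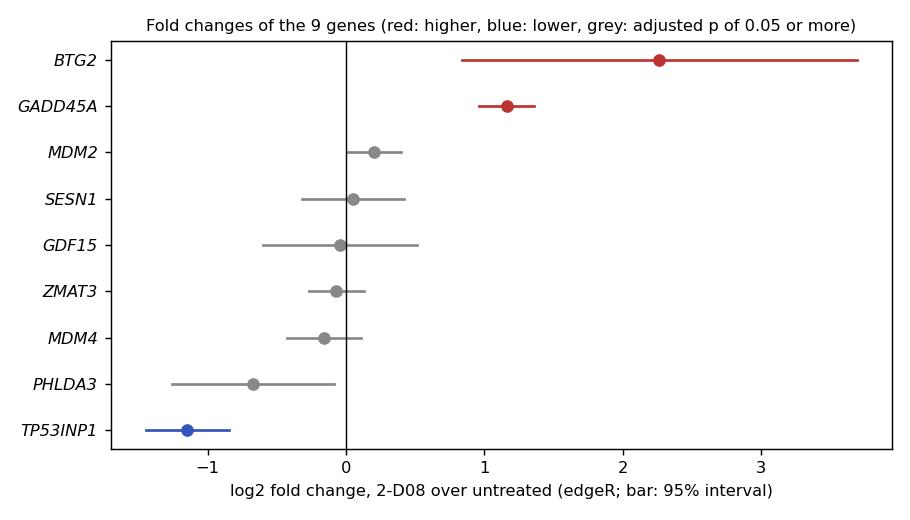
log2 fold change of treated over untreated libraries (horizontal axis) for each gene with its 95% interval from edgeR; red is higher, blue lower and grey an adjusted p of 0.05 or more. The intervals of GADD45A (0.96 to 1.36) and TP53INP1 (-1.45 to -0.85) stand away from 0. That of BTG2 (0.84 to 3.69) does so too and is the widest of the 9, but its direction was fixed by the low-count filter. Those of PHLDA3 (-1.26 to -0.09) and MDM2 (0.004 to 0.40) also leave out 0, at adjusted p of 0.0707 and 0.107.

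The regulators of p53 are taken first. MDM2, the ubiquitin ligase that targets p53 for degradation (chromosome 12, 68808176 to 68850686, GRCh38, plus strand), stood at 105 and 104 CPM in untreated replicates 1 and 2 and at 114 and 126 CPM in treated replicates 1 and 2, the order kept below. Both treated libraries were above both untreated ones, but treated replicate 1 exceeded them by less than the treated libraries differed from each other. MDM2 had a log2 fold change of 0.20 ± 0.09 (SE) that did not pass (edgeR adjusted p = 0.107), and its 95% interval ran from 1.00-fold to 1.32-fold. The call changed without treated replicate 1, where the log2 fold change was 0.26. It also changed with a replicate block (0.20, edgeR adjusted p = 0.0233), though no label says that a shared replicate number pairs libraries. In GENCODE 29 the exons of MDM2 share 785 bases with an antisense gene and 133 with the gene of carboxypeptidase M, both on the opposite strand, and 439 with a processed pseudogene on its own strand. Those of SESN1 share 363 bases with an antisense gene and those of PHLDA3 598 with a noncoding gene on its own strand. Whether counting used strand is not given in the sources used here, so a part of the reads of these 3 genes is uncertain.

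MDM4, the MDM2 relative that blocks p53's activation domain (chromosome 1, 204516379 to 204558120, plus strand), had 24.9 and 26.8 CPM without and 23.3 and 23.0 CPM with the compound. The treated libraries lay just below the untreated ones. Its log2 fold change of -0.16 ± 0.12 did not pass (edgeR adjusted p = 0.343), with a 95% interval of 0.744-fold to 1.08-fold. The deposited TPM values did not keep this order: they were 6.73 and 5.90 in untreated and 5.38 and 7.35 in treated libraries, and the groups overlapped.

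TP53INP1 encodes a protein that joins kinases to p53 and also takes part in autophagy (chromosome 8, 94925972 to 94949411, minus strand). It had 26.4 and 28.0 CPM in untreated cells and 12.9 and 11.7 CPM in treated cells, from 782 and 462 counts and from 194 and 362 counts. Every treated library was below every untreated one, and the gap was many times the spread within either pair. TP53INP1 fell by 1.15 on the log2 scale (SE 0.14), 2.21-fold lower (edgeR adjusted p = 4.17e-05). On the TPM scale it stood at 6.47 and 6.67 against 3.07 and 2.67. In 16 alternatives the value lay between -1.21 and -0.85 and passed the threshold each time.

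Targets that act on the cell cycle and on repair come next. GADD45A, a stress protein that binds the replication clamp PCNA and the MAP kinase kinase kinase MEKK4 (chromosome 1, 67685061 to 67688338, plus strand), had 2258 and 1359 counts in untreated libraries and 2725 and 5334 counts in treated ones. These are 76.1 and 82.3 CPM against 181 and 173 CPM. Both treated libraries stood above both untreated ones, with a gap far wider than the spread within a pair. GADD45A rose by 1.16 ± 0.09 (SE) on the log2 scale, 2.24-fold higher with a 95% interval of 1.95-fold to 2.57-fold (edgeR adjusted p = 1.05e-06). TPM gave 94.2 and 105 against 228 and 216. Of all genes tested, 94.4% had a smaller absolute log2 fold change than GADD45A, and 94.2% a smaller one than TP53INP1.

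BTG2, an antiproliferative protein that recruits the CCR4-NOT deadenylase to messenger RNA (chromosome 1, 203305491 to 203309602, plus strand), had 8 and 1 counts in untreated libraries and 9 and 36 counts in treated ones. That is 0.270 and 0.0605 CPM against 0.598 and 1.17 CPM, and treated replicate 1 rested on 9 reads. The groups did not overlap, but BTG2 passed the low-count filter only through its treated libraries. Its direction and this separation were therefore fixed by the filter. The log2 fold change was 2.27 ± 0.67 (SE; edgeR adjusted p = 0.0178), with a 95% interval of 1.79-fold to 12.9-fold. The call was lost without untreated replicate 2 (1.76, adjusted p = 0.0987) and without treated replicate 2 (1.62, adjusted p = 0.296), and the value was 3.81 without untreated replicate 1 (adjusted p = 0.0214). It was also lost with DESeq2 (adjusted p = 0.0773) and on log2-scaled TPM tested by limma (adjusted p = 0.149 with a pseudocount of 1 and 0.101 with 0.1). When the libraries with mostly even counts were divided by 2, BTG2 no longer passed the low-count filter.

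SESN1 encodes sestrin 1, which restrains the growth kinase complex mTORC1 and supports antioxidant defence (chromosome 6, 108986437 to 109094819, minus strand). It had 9.64 and 10.8 CPM in untreated and 11.0 and 10.1 CPM in treated libraries, and the groups overlapped. SESN1 differed by 0.05 ± 0.17 on the log2 scale (edgeR adjusted p = 0.844; 95% interval 0.802-fold to 1.34-fold), and its sign turned on both TPM scales (-0.12 and -0.14), without untreated replicate 1 (-0.03) and without treated replicate 1 (-0.01).

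ZMAT3, a zinc finger protein that binds RNA and acts on splicing and messenger stability (chromosome 3, 179017223 to 179072279, minus strand), had 78.5 and 78.7 CPM in untreated and 74.1 and 75.6 CPM in treated libraries. The pairs were narrow and did not overlap, but the difference was small. Its log2 fold change of -0.07 ± 0.09 did not pass (edgeR adjusted p = 0.587), and the 95% interval was 0.83-fold to 1.09-fold.

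Survival signalling and secretion are represented by PHLDA3 and GDF15. PHLDA3, a small protein that competes with the kinase AKT for membrane lipids (chromosome 1, 201464383 to 201469237, minus strand), had 3.98 and 3.21 CPM in untreated and 2.46 and 2.14 CPM in treated libraries. The treated pair lay below the untreated pair. A log2 fold change of -0.67 ± 0.27 missed the threshold (edgeR adjusted p = 0.0707) with a 95% interval of 0.418-fold to 0.94-fold, and it passed without treated replicate 1 (-0.77, adjusted p = 0.0382). In TPM the groups overlapped, at 4.36 and 2.03 against 2.57 and 1.11.

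GDF15, a secreted member of the TGF-beta superfamily that is raised by many stresses (chromosome 19, 18374731 to 18389176, plus strand), had 204 and 118 counts in untreated and 139 and 148 counts in treated libraries. The CPM values were 6.88 and 7.14 against 9.24 and 4.80. Treated replicate 1 was above and treated replicate 2 below both untreated libraries. The 2 treated libraries thus differed more from each other than the group means did (7.01 ± 0.189 against 7.02 ± 3.14 CPM, SD, n = 2). The log2 fold change was -0.05 ± 0.26 (edgeR adjusted p = 0.907; 95% interval 0.658-fold to 1.43-fold). Without treated replicate 1 it was -0.55 (adjusted p = 0.0382), and without treated replicate 2 it was 0.40 (adjusted p = 0.153).

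Levels of different genes were compared on the TPM scale, which allows for transcript length. In untreated cells the order of means was GADD45A (99.5 ± 7.57, SD, n = 2), MDM2 (33.2 ± 1.30), ZMAT3 (13.8 ± 0.877), GDF15 (9.67 ± 0.587), TP53INP1 (6.57 ± 0.141), MDM4 (6.32 ± 0.587), SESN1 (5.85 ± 1.47), PHLDA3 (3.20 ± 1.65) and BTG2 (0.105 ± 0.0495). The ranges of TP53INP1 and MDM4 overlapped, as did those of MDM4 and SESN1, and every other neighbouring pair stood apart. In treated cells GADD45A (222 ± 9.07), MDM2 (35.9 ± 4.83) and ZMAT3 (12.8 ± 0.226) kept the first places. TP53INP1 (2.87 ± 0.283) moved from place 5 to place 7, below MDM4 (6.37 ± 1.39) and SESN1 (5.30 ± 1.36). GDF15 (9.07 ± 4.48) overlapped MDM4, which overlapped SESN1. GADD45A lay above 92.8% of all genes of the table in untreated cells and above 97.3% in treated ones, and BTG2 (0.440 ± 0.184 when treated) lay above 29.3% and 35.3%.

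The deposited TPM values and the CPM computed from counts did not give the same picture for every member. For a gene whose length is held fixed, log2(CPM/TPM) minus the library's median is the same in every library. Across the 11267 genes with at least 1 TPM in all libraries its range over the 4 libraries had a median of 0.15. TP53INP1 (0.04), GADD45A (0.08) and ZMAT3 (0.09) ranged less than that, GDF15 (0.16) and MDM2 (0.17) lay close to it, and SESN1 (0.54), MDM4 (0.58) and PHLDA3 (1.01) ranged more, on the log2 scale. BTG2 (1.21) is below 1 TPM and so is not among the genes behind that median. For PHLDA3 this is a 2.01-fold disagreement, split by replicate number and not by treatment. TPM values of the 2 groups did not overlap for 4 of 9 members, against 61.4% of genes tested.

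**Figure D3:**
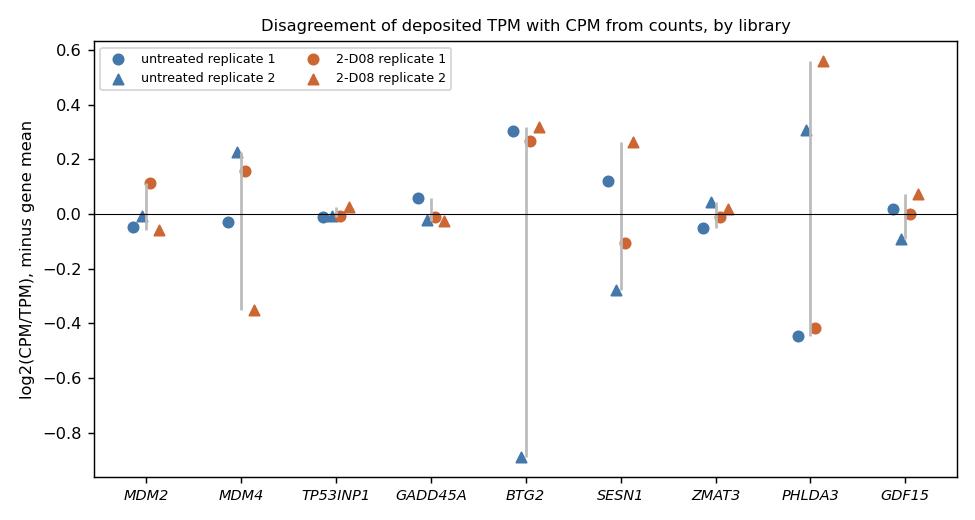
log2 of CPM over deposited TPM, minus each gene's mean over the 4 libraries (vertical axis), for the 9 genes; colours are groups, circles replicate 1, triangles replicate 2, and grey bars span the 4 values. Points of TP53INP1, GADD45A and ZMAT3 lie close to 0, and those of PHLDA3 fall apart by replicate number over a range of 1.01.

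Other known p53 targets, 45 genes chosen by membership of the pathway, moved in both directions. Of 42 tested, 8 were higher, 8 lower and 26 did not pass the test (38.1% called, against 33.9% over all genes), with a median log2 fold change of 0.15. CDKN1A, the CDK inhibitor p21 and a hallmark p53 target, had 17.0 and 14.8 CPM in untreated and 68.4 and 51.7 CPM in treated libraries (1.90 ± 0.14 SE, edgeR adjusted p = 6.78e-07). KITLG, the ligand of the receptor KIT, stood at 49.5 ± 2.01 CPM in untreated and 129 ± 13.9 CPM in treated cells (SD, n = 2 each; log2 fold change 1.38 ± 0.10, SE). CCNG1, which encodes cyclin G1 and lowers p53 activity through MDM2, stood at 142 ± 5.18 CPM in untreated and 75.1 ± 2.92 CPM in treated cells (-0.92 ± 0.09, edgeR adjusted p = 7e-06). The polo-like kinase gene PLK2 went from 171 ± 1.15 to 106 ± 5.16 CPM (-0.69 ± 0.09).

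The remaining genes called higher were SERTAD1 (1.05), the nuclease gene AEN (0.98), the fructose bisphosphatase gene TIGAR (0.64), the p53 phosphatase gene PPM1D (0.57), PMAIP1 (0.54) and the death receptor gene TNFRSF10B (0.35), all on the log2 scale. Those called lower were the pro-apoptotic gene BBC3 (-1.66), TRIM22 (-1.08) and the lysosomal fucosidase gene FUCA1 (-0.87). FDXR (-0.59), the autophagy regulator gene DRAM1 (-0.57) and EDA2R (-0.37) were also called lower. With the genes above, these are all the called genes of the list, and being called is itself a choice by value. Genes of nucleotide excision repair, DDB2 (-0.19) and XPC (-0.04), and the pro-apoptotic gene BAX (0.31) did not pass. Without untreated replicate 1 the list had 5 higher and 5 lower, and with limma on either TPM scale also 5 and 5.

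**Figure D4:**
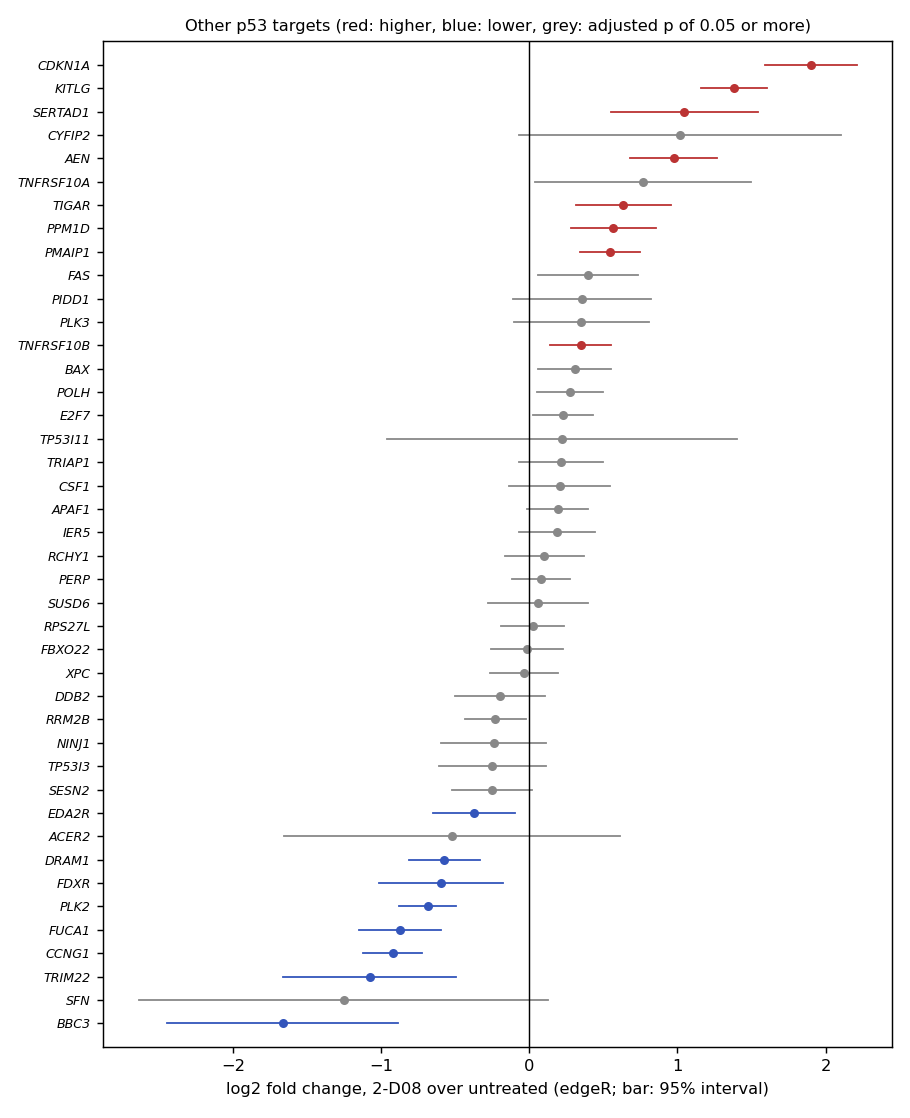
log2 fold change of treated over untreated libraries (horizontal axis) with 95% intervals from edgeR for the 42 tested genes of the list of other p53 targets; red is higher, blue lower and grey an adjusted p of 0.05 or more. Calls run from 1.90 for CDKN1A to -1.66 for BBC3, with 8 genes on each side.

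Among damage kinases, mediators and regulators of p53, 4 of 29 tested genes were higher and 4 lower (27.6% called, against 33.9% over all genes). Their median log2 fold change was 0.05. TOPBP1, which activates the kinase ATR, stood at 117 ± 8.31 CPM in untreated and 194 ± 12.6 CPM in treated cells (SD, n = 2 each; 0.74 ± 0.10 SE, edgeR adjusted p = 7.5e-05). MDC1, a scaffold at DNA breaks, went from 96.0 ± 3.39 to 151 ± 10.0 CPM (0.66 ± 0.09). PPP1R13L, which encodes the p53 inhibitor iASPP, went from 31.4 ± 2.48 to 19.1 ± 2.74 CPM (-0.74 ± 0.14), and the acetyltransferase gene KAT5 from 25.7 ± 3.19 to 16.0 ± 2.90 CPM (-0.71 ± 0.16). Both lost their calls on the TPM scales, PPP1R13L at -0.53 and -0.54 (adjusted p of 0.07 and 0.0682) and KAT5 at -0.74 and -0.78 (0.0627 and 0.061), and KAT5 also without untreated replicate 1 (-0.57, adjusted p = 0.0782). ATM (-0.31) and TP53BP1 (-0.32) were the others called lower, and TP53BP2 (0.31) and TP63 (2.65, from 4 and 0 to 11 and 14 counts) the others called higher. TP63 passed the filter only through its treated libraries. The kinase genes ATR (0.02), CHEK1 (0.25), CHEK2 (-0.14) and PRKDC (-0.07) did not pass. The count called was 4 without untreated replicate 1 and 4 without untreated replicate 2, and 2 on either TPM scale; with treated replicate 1 left out 7 were higher.

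Relatives of the members within their gene families gave 5 higher and 4 lower of 14 tested (64.3% called, against 33.9% over all genes). Their median log2 fold change was 0.00, and this short list was not tested as a set. GADD45B, a stress protein of the family of GADD45A, had 30.0 and 29.9 CPM in untreated and 78.1 and 62.8 CPM in treated libraries (1.23 ± 0.12 SE, edgeR adjusted p = 6.07e-06). GADD45G was not tested, at 0 and 2 against 12 and 6 counts. BTG3, of the BTG2 family, stood at 25.6 ± 0.00339 CPM in untreated and 57.5 ± 3.73 CPM in treated cells (SD, n = 2 each; 1.17 ± 0.11), and BTG1 (0.05) did not pass. In the sestrin family SESN3 went from 29.8 ± 1.25 to 15.4 ± 1.29 CPM (-0.96 ± 0.13), while SESN2 (-0.25) and SESN1 did not pass. PHLDA2 (1.19), TOB1 (0.31) and GDF11 (0.29) were called higher, and TP53INP2 (-0.47) and ZMAT1 (-0.49) lower. GDF5, a growth factor of the same superfamily as GDF15, went from 42.4 ± 6.09 to 5.77 ± 1.11 CPM (-2.85 ± 0.17). Without untreated replicate 1, and on either TPM scale, 3 relatives were called higher.

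The genes whose pattern over the 4 libraries was most like that of the member with the largest called rise and the member with the largest called fall were found by Euclidean distance of mean-centred log2 CPM, among genes averaging 5 CPM or more. For TP53INP1 they were CCBE1 (distance 0.0895, log2 fold change -1.21), PBXIP1 (0.109, -1.14) and SLC27A1 (0.113, -1.05). For BTG2 they were IL13RA2 (0.826, 2.17), TMEM156 (0.994, 2.08) and BMP2 (0.997, 1.70). The distances for BTG2 are far longer than those for TP53INP1. Its profile rests on few reads, and its difference between groups was fixed by the filter, so these 3 genes are given only because the rule names them.

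**Figure D5:**
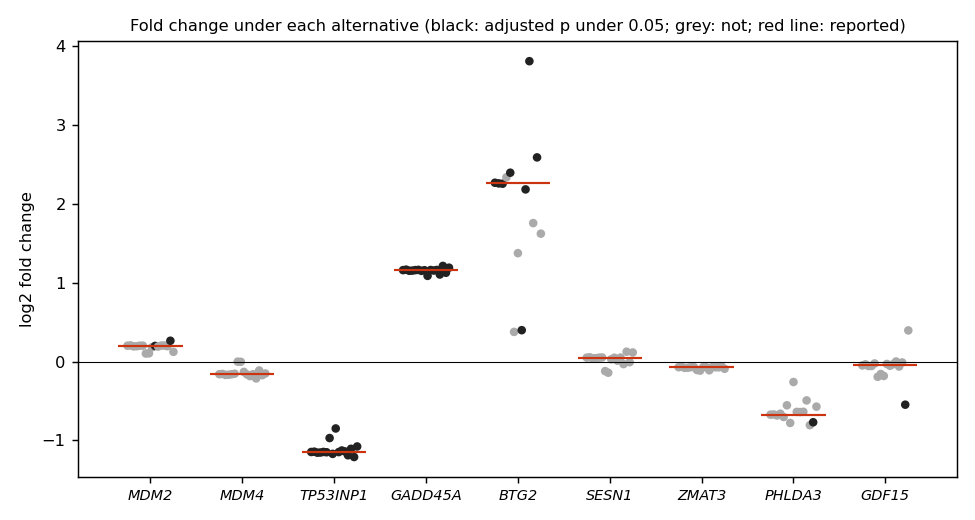
log2 fold change of each gene (vertical axis) under every alternative that gave a value, in black where the adjusted p was under 0.05 and in grey where it was not; red lines mark the reported values. Points of GADD45A and TP53INP1 are all black and lie near their lines, those of BTG2 spread from 0.38 to 3.81, and those of GDF15 and SESN1 lie on both sides of 0.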

How the data were processed

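The submitters' processing notes name the build GRCh38, DESeq2, STAR 2.7.8a and cutadapt 3.4. How reads were assigned to genes, whether strand was used and with which annotation is not given in the sources used here. Ribosomal RNA was removed before library construction, per the labels' protocols. The authors deposited raw read counts, TPM values (listed genes sum to 716934 to 761770 per library) and a table of 16871 genes named normalised counts. The values of that last deposited table run from 6.35 to 18.3 and were read as log2-like, for an alternative only.

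The counts were tested with edgeR 4.0.16 in R 4.3.3 (filterByExpr, minimum count 10; TMM factors; robust quasi-likelihood test, two-sided; Benjamini-Hochberg over all 12906 genes tested). Standard errors and 95% intervals were derived from the F statistic. Alternatives used limma 3.58.1 and DESeq2 1.42.0. On simulated data for this comparison (12906 genes, 50 changed per fold size) 66% of 1.5-fold, 90% of 2-fold, 100% of 4-fold and 92% of 8-fold changes were recovered, and 2.79% of 179 calls were false. The simulation gave all genes the same spread, left out the excess of even counts and changed few genes, whereas 33.9% were called here. These shares therefore need not hold for the real libraries. Positions are from GENCODE 29 (GRCh38). The members, gene lists and rules were chosen with earlier results of these data known. Named are all members, up to 4 genes of smallest p per list with a mean of at least 1 CPM, the 3 nearest patterns to each of 2 members, and other called list genes, added after their values were seen. Some list genes that did not pass or were not tested, such as BAX, CHEK1 and GADD45G, were also named, by no fixed rule. The lists receive no set test.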

Additional observations from a re-analysis of the deposited data

How the results depend on the processing

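GADD45A and TP53INP1 kept direction and call in all 16 alternatives. Of 21 named genes past the threshold, 18 stayed past it in every alternative that gave a value, and 0 turned sign. The exceptions were BTG2, PPP1R13L and KAT5. Apart from the members, these genes were picked by smallest p in a list or by pattern, in the same libraries. Their number therefore does not measure how stable calls are in general. On log2-scaled TPM limma called 1598 genes with a pseudocount of 1 (702 up, 896 down) and 1608 with 0.1 (714 and 894). On both scales 10 other p53 targets (5 higher, 5 lower), 2 damage and regulator genes (2 and 0) and 6 relatives (3 and 3) passed. The cause was not tested. Of members, 1 was called higher with a mean of at least 5 CPM and with counts thinned or halved (BTG2 was then not tested), with DESeq2 and on both TPM scales. DESeq2 called 2 damage and regulator genes higher. GDF15 turned sign with even-count libraries halved (0.00115), and SESN1 on the TPM scales (-0.12 and -0.14). MDM4 was 0.00 on both TPM scales. Fits without 1 library assume that the single library left in its group varies like the other pair; they called 1866 to 6077 genes (949 to 2931 up, 917 to 3146 down), 2 to 6 members (1 to 3 higher, 1 to 3 lower), 10 to 22 other targets (5 to 12, 5 to 11), 4 to 11 damage and regulator genes (2 to 7, 1 to 6) and 3 to 5 relatives higher. GDF15 then ran from -0.55 to 0.40 and SESN1 from -0.031 to 0.13 (also -0.0074 without treated replicate 1). No label says that a shared replicate number pairs libraries; deviations of same-numbered libraries correlated at 0.157 over 12906 genes and 0.398 over the 10502 with a mean of at least 5 CPM. A replicate block gave 6239 calls, MDM2 passed (0.20, adjusted p = 0.0233), and 13 other targets were higher and 13 damage and regulator genes changed (8 higher). Depth limits BTG2 most, at 1 to 36 reads.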

Other observations

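For GADD45A, 1 of the 2 members called higher, the 3 genes closest in pattern over the 4 libraries were also found. The choice of this member was made after its values were seen. They were SERPINB2 (log2 fold change 1.14), NEMP1 (1.14) and SH3BGRL2 (1.23), at distances of 0.0348, 0.0557 and 0.061. A different constant was added before taking log2 than for TP53INP1 and BTG2, so these distances cannot be compared with theirs. PHLDA3, BTG2 and MDM4 lie near each other on the long arm of chromosome 1, with 1.84 Mb between PHLDA3 and BTG2 and 1.21 Mb between BTG2 and MDM4.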
